A study of Mus musculus with 8 samples.

Results

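The genes described here are the 10 that carry iron into a cell, store it, let it out again and set how much of each is made: Tfrc, Tfr2, Slc40a1, Slc11a2, Fth1, Ftl1, Steap3, Slc25a37, Ireb2 and Aco1. They were picked out by gene symbol from the 47729 genes of the deposited count table. All 10 were found, and all 10 passed the filter on low counts. They were measured by RNA sequencing in bone marrow cells of mice with a chronic myeloid leukaemia-like disease driven by the fusion kinase BCR-ABL1. In the 4 Fubp1 shRNA mice (called knockdown here) the leukaemic cells also carried a lentiviral shRNA against Fubp1, which encodes a nucleic acid binding protein best known for acting on the Myc promoter. In the 4 scrambled shRNA mice they carried a control hairpin in the same vector. Both groups are C57BL/6 by label and share everything else the sources give. Donor marrow came from mice treated with 5-fluorouracil, received the BCR-ABL1 retrovirus with its red reporter and the hairpin with its Venus reporter, and was transplanted into hosts given a sublethal 900 cGy of radiation. Cells that were alive, lineage negative and positive for both reporters were then sorted. The sources used here give neither the age of the mice nor the sequence or number of hairpins. Each library is 1 mouse.

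Most iron in marrow is used by red cell precursors, which need it for haem. Transferrin brings iron to transferrin receptor 1 (Tfrc) at the cell surface; inside the endosome Steap3 reduces it, Slc11a2 (DMT1) moves it into the cytosol, and Slc25a37 (mitoferrin-1) takes it into the mitochondrion. Iron not used is held by ferritin, a shell of heavy (Fth1) and light (Ftl1) chains, and leaves the cell through ferroportin (Slc40a1). A pair of RNA-binding proteins, IRP1 (Aco1) and IRP2 (Ireb2), bind hairpins called iron-responsive elements when iron is scarce: in a 5′ untranslated region this blocks translation, and in the 3′ untranslated region of Tfrc it protects the mRNA.

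These elements are printed because they link the members to each other, and because they set what a count of mRNA can and cannot show. The search, on the sense strand of GENCODE M21 coding transcripts (GRCm38), was for a C, 5 bases of any kind, then a loop of CAGTG and a last base other than G. The 5 bases before the loop had to pair with those after it, G with T allowed. Of 21901 protein-coding genes 123, or 0.56%, had a match in an untranslated region. Among the members, 4 genes had one. An element with an unpaired base among those 5 would be missed, so no match does not show that a member lacks one. Each line gives 29 bases, 5′ to 3′ on the transcript strand, with the loop in capitals.
Fth1, 5′ UTR, chr19:9982732-9982760, plus strand: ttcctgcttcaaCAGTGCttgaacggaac
Ftl1, 5′ UTR, chr7:45459779-45459807, minus strand: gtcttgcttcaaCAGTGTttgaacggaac
Slc40a1, 5′ UTR, chr1:45925465-45925493, minus strand: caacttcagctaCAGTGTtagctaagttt
Tfrc, 3′ UTR, chr16:32631219-32631247, plus strand: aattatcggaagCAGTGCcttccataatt
Tfrc, 3′ UTR, chr16:32631598-32631626, plus strand: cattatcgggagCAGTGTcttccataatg
Tfrc, 3′ UTR, chr16:32631663-32631691, plus strand: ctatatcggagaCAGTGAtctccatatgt
Tfrc, 3′ UTR, chr16:32631710-32631738, plus strand: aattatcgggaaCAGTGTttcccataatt
The elements of the 2 ferritin genes were identical at 26 of 29 bases. The Slc40a1 element was present in 1 of its 4 annotated coding transcripts, and the Tfrc elements in 1 of 3; counts per gene do not tell such transcripts apart. A match describes letters and not binding, and these data hold no measure of translation.

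The libraries held 24042761 to 44761356 counts in the knockdown and 22465303 to 38495006 in the scrambled group, and each member had at least 2385 counts in every library. The target itself was lower by a modest amount: Fubp1 measured 281, 228, 220 and 239 CPM (counts scaled to library size) in knockdown replicates 1 to 4, against 296, 284, 291 and 396 CPM in scrambled replicates 1 to 4. The groups did not overlap (exact two-sided permutation p = 0.0286, the smallest that 4 against 4 allows), but the log2 fold change of -0.39 (SE 0.12) missed the threshold over all genes by edgeR's quasi-likelihood test (adjusted p = 0.0604). T cell and B cell markers were nearly absent: their summed levels reached at most 0.242 and 3.71 CPM in the knockdown, against at most 0.0923 and 0.805 CPM in the scrambled libraries. Knockdown replicate 3 lay among the scrambled libraries on the first principal component, at -29.0, against 34.1 to 81.2 for the other 3 knockdown libraries and -57.3 to -13.7 for the scrambled ones. Values of the members that it moved by over 1.5 times, or whose call it changed, are given with and without it.

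Ferroportin mRNA, IRP1 mRNA and ferritin light chain mRNA were called different between the groups. The IRP1 call held in 8 of 16 alternatives and that of the ferritin light chain in 10. The messages for the transferrin receptors, ferritin heavy chain and IRP2 did not pass the test, though the groups did not overlap in Tfr2. Slc40a1 fell to 65.2% of the scrambled mean and Aco1 to 66.4%, and Ftl1 rose to 132% of it. By edgeR's quasi-likelihood test, adjusted over all 13462 tested genes after Benjamini and Hochberg, 2 of the 10 members were called lower and 1 higher at a threshold of 0.05. Over all tested genes 15.3% were called, 7.29% lower and 8.02% higher. DESeq2 called the same 3 members (27.2% of all genes with a value, 14.8% higher and 12.5% lower), and limma-voom called 2 of them, Aco1 missing (13.1% of all tested genes, 6.25% higher and 6.84% lower). Of the 10 log2 fold changes 8 were negative; their median was -0.15, where the median over all tested genes was 0.00120. In 3 members the groups did not overlap, 2 lower and 1 higher; among all tested genes 20.7% did not, 11.1% lower and 9.54% higher. These are whole sorts of cells, in which fewer cells of a type and less RNA per cell cannot be told apart. The p-values measure the spread between these mice.

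**Figure D1:**
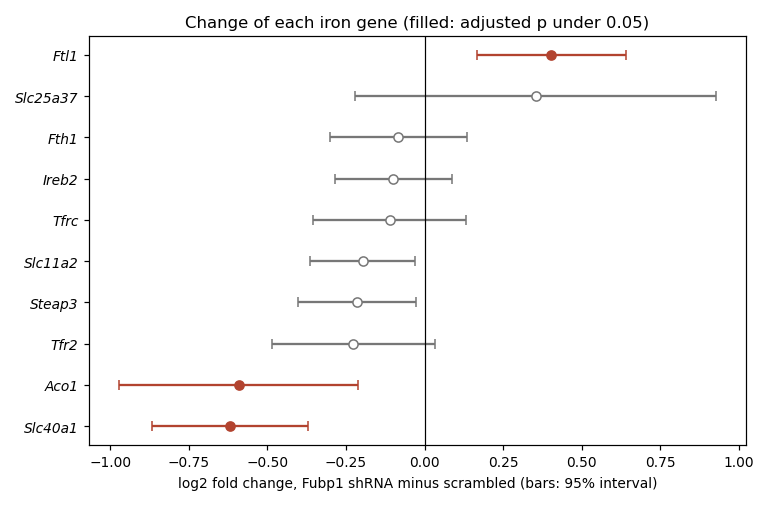
Log2 fold change of each of the 10 iron genes, knockdown minus scrambled (points), with its 95% interval (bars); filled points passed an adjusted p of 0.05 by edgeR's quasi-likelihood test. Slc40a1 (-0.62) and Aco1 (-0.59) lie furthest to the left and Ftl1 (0.40) furthest to the right, and the interval of Slc25a37 is the widest of the 10.

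Of the export side, Slc40a1 (ENSMUSG00000025993, chr1:45908068-45926523, minus strand) encodes ferroportin, the cell's iron exporter. It measured 113, 94.3, 120 and 97.6 CPM in knockdown replicates 1 to 4, against 161, 171, 183 and 135 CPM in scrambled replicates 1 to 4. Every knockdown library lay below every scrambled one, the nearest pair being knockdown replicate 3 and scrambled replicate 4. The means were 106 ± 12.1 CPM in the knockdown and 163 ± 20.3 CPM in the scrambled group (SD, n = 4 each), a log2 fold change of -0.62 (SE 0.11, 95% interval -0.87 to -0.37, adjusted p = 0.0117 by edgeR). It was the only member that passed under all 16 alternatives tried, among them each library left out in turn, where the adjusted p ran from 0.00570 to 0.0454. Ferroportin is also abundant in iron-recycling macrophages. The 13 macrophage markers summed to 16.1 to 54.2 CPM in the knockdown and up to 15.7 CPM in the scrambled libraries; none of the 5 tested passed, and Spic, which marks recycling macrophages, reached at most 0.0653 CPM in any library. Csf1r was the largest single part in knockdown replicates 1 and 4, at 26.1 and 17.7 CPM. Other markers were also higher on average in the knockdown. Cd68 averaged 10.3 against 5.43 CPM and Axl 6.22 against 3.35 CPM (knockdown and scrambled). Adgre1 averaged 2.59 against 0.100 CPM and Mrc1 1.14 against 0.141 CPM. Cd163, the receptor by which macrophages take up haemoglobin, went the other way without passing the test: it measured 3.02, 2.41, 2.57 and 0.522 CPM in knockdown replicates 1 to 4, against 4.55, 4.37, 3.61 and 3.55 CPM in scrambled replicates 1 to 4. The part of such cells, which a lineage-negative sort is meant to leave out, in the Slc40a1 difference was not tested.

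Of the regulators, Aco1 (ENSMUSG00000028405, chr4:40143081-40198338, plus strand) encodes IRP1, a protein that is a cytosolic aconitase when it holds an iron-sulfur cluster and an RNA-binding protein when it does not. It measured 96.1, 114, 129 and 89.7 CPM in knockdown replicates 1 to 4, against 157, 188, 182 and 117 CPM in scrambled replicates 1 to 4. Scrambled replicate 4 fell inside the knockdown range, so the groups overlapped. The log2 fold change was -0.59 (SE 0.17, 95% interval -0.97 to -0.21, adjusted p = 0.0469 by edgeR). The call sat at the edge of the threshold: it ended with limma-voom (adjusted p = 0.0502), with no low count filter (0.0976) and without any 1 of 6 of the 8 libraries (up to 0.122). It was kept without knockdown replicate 3 (log2 fold change -0.70, adjusted p = 0.0246) and without scrambled replicate 4 (-0.73, adjusted p = 0.0178).

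Its partner Ireb2 (ENSMUSG00000032293, chr9:54863789-54912530, plus strand) encodes IRP2, which has no such enzyme activity and is destroyed when iron is plentiful. It measured 133, 118, 129 and 156 CPM in knockdown replicates 1 to 4, against 143, 146, 147 and 138 CPM in scrambled replicates 1 to 4. Knockdown replicate 4 was the highest of all 8 libraries and the other 3 knockdown libraries the lowest. The log2 fold change was -0.10, with a 95% interval of -0.29 to 0.09 (adjusted p = 0.441 by edgeR), which includes 0. It was -0.19 without knockdown replicate 4 (adjusted p = 0.0761), -0.04 without knockdown replicate 2 and -0.06 with total counts as the only scaling.

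Of the storage pair, Fth1 (ENSMUSG00000024661, chr19:9980598-9985098, plus strand) encodes the heavy chain, whose active site oxidises iron for storage. It measured 1775, 1686, 2153 and 1556 CPM in knockdown replicates 1 to 4, against 1948, 1886, 1764 and 1998 CPM in scrambled replicates 1 to 4. The groups overlapped, with the highest and the lowest of the 8 values both in the knockdown. The log2 fold change was -0.08, with a 95% interval of -0.30 to 0.14 (adjusted p = 0.592 by edgeR). Single libraries moved this value: it was -0.19 without knockdown replicate 3 (adjusted p = 0.0643), -0.13 without scrambled replicate 3, -0.05 without knockdown replicate 2 and -0.03 without knockdown replicate 4. With total counts as the only scaling it was -0.05.

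Ftl1 (ENSMUSG00000050708, chr7:45457944-45459884, minus strand) encodes the light chain, which has no oxidase site and helps the iron core form. It measured 142, 126, 172 and 128 CPM in knockdown replicates 1 to 4, against 118, 101, 102 and 109 CPM in scrambled replicates 1 to 4. All knockdown libraries lay above all scrambled ones, with knockdown replicate 3 the highest. The means were 142 ± 21.2 and 107 ± 7.89 CPM (knockdown and scrambled; SD, n = 4 each), a log2 fold change of 0.40 (SE 0.10, 95% interval 0.17 to 0.64, adjusted p = 0.0356 by edgeR). It lost the call without knockdown replicate 1 or without any 1 of the 4 scrambled libraries, with an adjusted p of up to 0.102, and with the replicate block (0.0950). The count of this gene is uncertain for another reason. Of the 50-base stretches of its longest coding transcript 90.6% also occurred in transcripts of other annotated genes, 17 in all, against 4.01% for Fth1, 8.07% for Slc25a37 and 0% for Tfrc, Tfr2, Slc40a1, Slc11a2, Steap3, Ireb2 and Aco1. The annotated copies Ftl1-ps1, Ftl1-ps2 and Ftl2-ps held 11, 14 and 3 counts over all 8 libraries, against 32503 for Ftl1. How the authors' counting treated reads with several matches is not stated, so the rise is that of the reads assigned to Ftl1.

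Of the uptake route, Tfrc (ENSMUSG00000022797, chr16:32608920-32632794, plus strand) encodes transferrin receptor 1, the main entry for iron in red cell precursors. It measured 1829, 1674, 2306 and 2084 CPM in knockdown replicates 1 to 4, against 2033, 2163, 1928 and 2398 CPM in scrambled replicates 1 to 4. The groups overlapped over most of their ranges. The log2 fold change was -0.11, with a 95% interval of -0.35 to 0.13 (adjusted p = 0.516 by edgeR); an average decrease of more than 0.35 log2 units lies outside that interval. No alternative of the 16 gave a call (adjusted p 0.133 to 0.836), but the value was -0.20 without knockdown replicate 3, -0.07 without scrambled replicate 4 and -0.04 without knockdown replicate 2.

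Tfr2 (ENSMUSG00000029716, chr5:137569840-137587481, plus strand) encodes transferrin receptor 2, an iron sensor that in red cell precursors partners the erythropoietin receptor. It measured 308, 321, 314 and 217 CPM in knockdown replicates 1 to 4, against 330, 338, 340 and 349 CPM in scrambled replicates 1 to 4. The groups did not overlap, yet knockdown replicate 4 stood well below the other 3, and the SD was 49.0 CPM in the knockdown and 8.01 CPM in the scrambled group. The log2 fold change of -0.23 (SE 0.11) did not pass (adjusted p = 0.200 by edgeR), nor did it under any of the 16 alternatives. Without knockdown replicate 4 it was -0.11, which is less than the value with all libraries by over 1.5 times.

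Steap3 (ENSMUSG00000026389, chr1:120190757-120272705, minus strand) encodes the endosomal ferrireductase. It measured 338, 341, 376 and 287 CPM in knockdown replicates 1 to 4, against 374, 416, 370 and 398 CPM in scrambled replicates 1 to 4. Slc11a2 (ENSMUSG00000023030, chr15:100387898-100425072, minus strand) encodes the endosomal iron transporter. It measured 190, 191, 223 and 183 CPM in knockdown replicates 1 to 4, against 221, 242, 227 and 213 CPM in scrambled replicates 1 to 4. In both genes knockdown replicate 3 lay inside the scrambled range and the other 3 knockdown libraries lay below all scrambled ones. Their log2 fold changes were -0.21 (SE 0.08) and -0.20 (SE 0.07), with adjusted p of 0.106 and 0.0953 by edgeR. Without knockdown replicate 3 both passed, with a log2 fold change of -0.28 for Steap3 (adjusted p = 0.0347) and -0.27 for Slc11a2 (adjusted p = 0.0169). The only annotated gene overlapping Slc11a2, Gm5475 on the other strand, had at most 11 counts in a library.

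Slc25a37 (ENSMUSG00000034248, chr14:69241848-69285112, minus strand) encodes mitoferrin-1, which brings iron into the mitochondria of red cell precursors. It measured 533, 306, 537 and 527 CPM in knockdown replicates 1 to 4, against 332, 327, 283 and 547 CPM in scrambled replicates 1 to 4. In each group 1 mouse sat with the other group: knockdown replicate 2 at the scrambled level and scrambled replicate 4 above all knockdown libraries. The log2 fold change was 0.35 (SE 0.25, 95% interval -0.22 to 0.93, adjusted p = 0.363 by edgeR). Without scrambled replicate 4 it was 0.58, without knockdown replicate 2 it was 0.52, and without scrambled replicate 3 it was 0.23; without any 1 of the other 5 libraries it was 0.28 to 0.30. None of these passed. Transcripts of 4 annotated genes, 2 of them antisense, overlap this locus, but none had a count in any library.

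**Figure D2:**
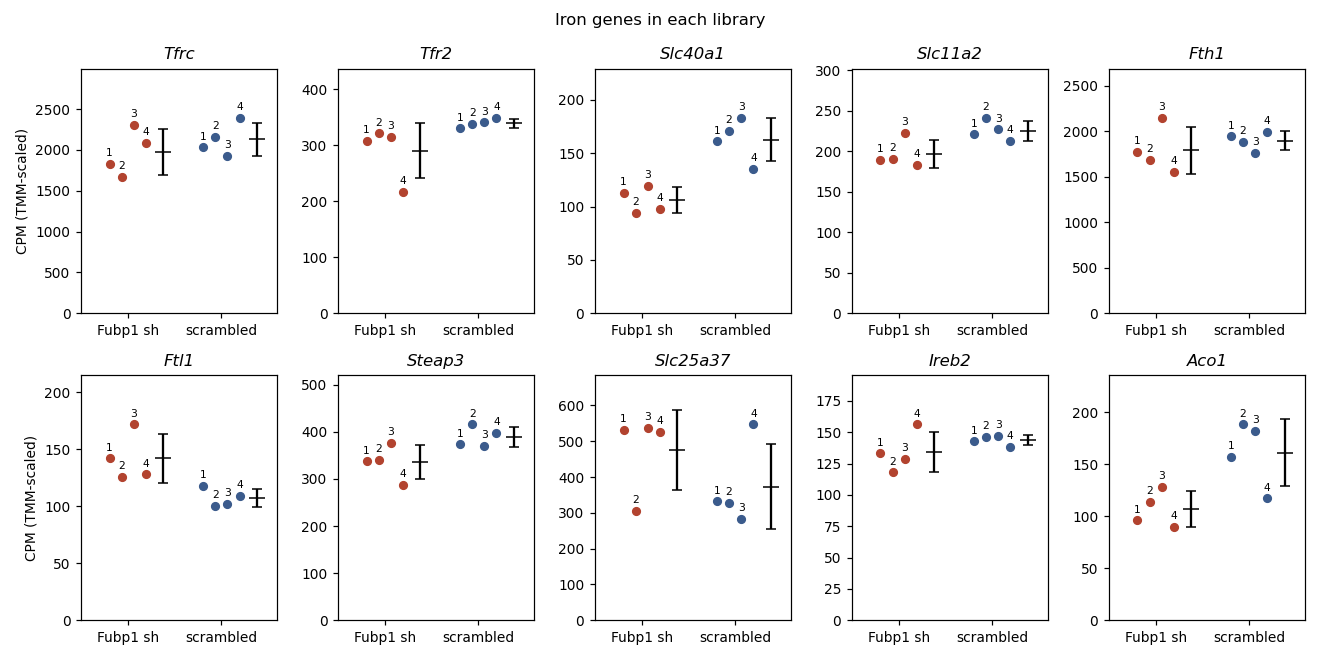
CPM of the 10 iron genes in every library, with the 4 knockdown libraries on the left and the 4 scrambled ones on the right of each panel (points numbered by replicate), and the mean ± SD beside each group; each axis starts at 0. The groups separate in Slc40a1, Tfr2 and Ftl1, and single mice stand apart in Tfr2 (knockdown replicate 4, 217 CPM) and Slc25a37 (knockdown replicate 2, 306 CPM).

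The members covered a wide range of levels. Per kilobase of annotated exon, Fth1 was the most abundant in both groups, at 517 CPM per kilobase in the knockdown and 547 in the scrambled group, followed by Tfrc at 319 and 344. The per-length ranges of Fth1, Tfrc and the next gene did not overlap in either group. At the low end by this measure stood Slc40a1, at 11.8 and 18.1 CPM per kilobase, and Ireb2, at 14.1 and 15.2. The order of this last pair differed: Ireb2 was above Slc40a1 in 4 of 4 knockdown libraries and Slc40a1 above Ireb2 in 4 of 4 scrambled ones, though their ranges overlapped in each group. The length used joins all annotated exons of a gene, 9000 bases for Slc40a1 and 9479 for Ireb2. Their longest coding transcripts have 3370 and 5770 bases. The place of Slc40a1 among the members and the order of this pair thus depend on the length used. Among neighbours in between, the ranges of Slc25a37 and Tfr2 and of Tfr2 and Steap3 overlapped in the knockdown, and those of Ftl1 and Tfr2, Steap3 and Slc25a37, and Aco1 and Slc11a2 in the scrambled group. The level of Ftl1, the next after Tfrc in both groups at 106 and 80.1 CPM per kilobase, carries the uncertainty of its shared sequence.

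Ratios of 2 members within a library do not depend on how libraries are scaled, and are given as a description with no test. The log2 ratio of Slc11a2 to Slc40a1 (entry into the cytosol over exit from the cell) was 0.75, 1.02, 0.90 and 0.91 in knockdown replicates 1 to 4, against 0.45, 0.50, 0.31 and 0.65 in scrambled replicates 1 to 4. It was higher in every knockdown library, by 0.42 on average. The log2 ratio of Fth1 to Ftl1 was 3.64, 3.74, 3.65 and 3.60 in knockdown replicates 1 to 4, against 4.05, 4.23, 4.11 and 4.20 in scrambled replicates 1 to 4. This ratio was lower in every knockdown library, by 0.49 on average, and its SD was 0.06 in the knockdown group and 0.08 in the scrambled group. The uncertainty of the Ftl1 count from its shared sequence applies to this ratio as well. Ireb2 to Aco1 was 0.33 ± 0.38 in the knockdown and -0.14 ± 0.27 in the scrambled group (log2 ratio, SD, n = 4 each), with overlap. Tfrc to Fth1, uptake over storage, was 0.14 ± 0.19 and 0.16 ± 0.09 (knockdown and scrambled, log2 ratio, SD, n = 4 each). Tfrc to Tfr2 was 2.77 ± 0.38 and 2.65 ± 0.12 on the same scale. Both overlapped between the groups.

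**Figure D3:**
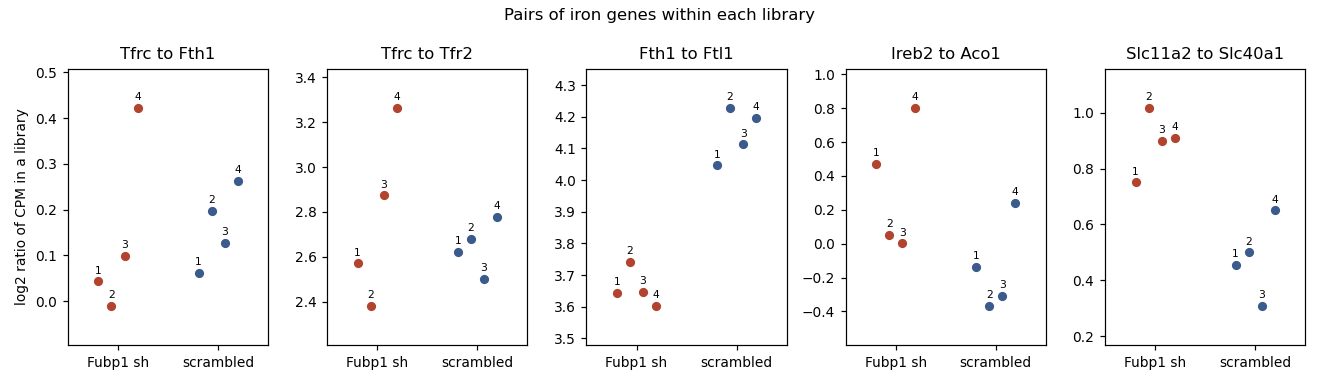
Log2 ratio of CPM of 2 iron genes within each library, with the 4 knockdown libraries on the left and the 4 scrambled ones on the right of each panel (points numbered by replicate; axes differ between panels and do not start at 0). The groups separate for Fth1 to Ftl1 (3.60 to 3.74 in the knockdown, 4.05 to 4.23 in the scrambled group) and for Slc11a2 to Slc40a1, and overlap in the other 3 panels.

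The knockdown mice also differed among themselves in these genes. Knockdown replicate 3 was the highest knockdown library in 8 of the 10 members, while replicates 2 and 4 were each the lowest in 5. The SD of log2 CPM was larger in the knockdown than in the scrambled group in 7 of the 10, as it was in 63.9% of all tested genes. The erythroid markers, of which 18 of 19 were in the table and tested, summed to 8985, 7178, 12056 and 8767 CPM in knockdown replicates 1 to 4, against 9032 to 10244 CPM in the scrambled libraries; 4 rose, 5 fell and none was at 0. The early granulocyte markers summed to 1973, 950, 86.7 and 3609 CPM in knockdown replicates 1 to 4, against 35.9 to 333 CPM in the scrambled libraries, and none of the 7 tested passed. The knockdown library with the most iron gene mRNA thus had the highest erythroid and the lowest early granulocyte level of the 4. The scrambled group did not show this: its replicate 1 had the highest erythroid and the lowest early granulocyte level. That library was the highest of its group in only 1 of the 10 members. What part these levels have in the members' differences was not tested. The megakaryocyte markers summed to 132 to 214 CPM against 68.7 to 86.8 CPM (knockdown and scrambled). Most of that was Itga2b (127 ± 30.1 against 41.0 ± 5.51 CPM; SD, n = 4 each), which rose, as did Gp1ba; the other 4 tested, among them Vwf, Pf4 and Gp9, did not pass. The late neutrophil markers summed to at most 23.2 against 6.73 CPM, and the mast cell and basophil markers to 5.11 to 80.7 against 1.97 to 17.8 CPM. Stroma and endothelium markers stood out in knockdown replicate 1, at 762 CPM, against 50.9 to 68.0 CPM in the other knockdown and 45.5 to 61.3 CPM in the scrambled libraries; the excess was Col1a1 and Col1a2, at 332 and 397 CPM. Of that list Pecam1, a gene of endothelium that platelets and some blood progenitors also express, rose, at 29.2 ± 14.9 against 4.51 ± 1.36 CPM (knockdown and scrambled; SD, n = 4 each; adjusted p = 0.0123 by edgeR). Slc40a1 without knockdown replicate 1 was still called lower (adjusted p = 0.0267 by edgeR), and Aco1 and Ftl1 did not pass.

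**Figure D4:**
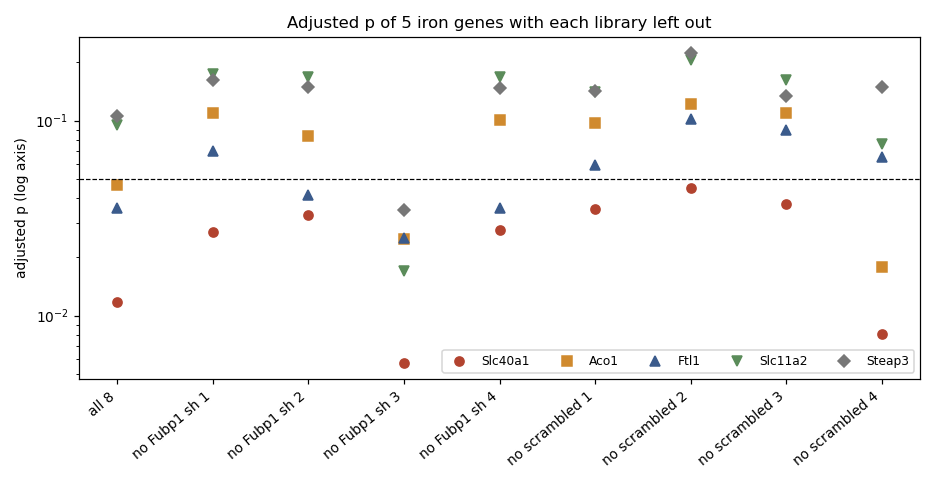
Adjusted p (log axis) by edgeR's quasi-likelihood test for 5 iron genes with all 8 libraries and with each library left out in turn; the dashed line is the threshold of 0.05. Slc40a1 stays below the line throughout, Aco1 and Ftl1 cross it with several libraries left out, and Slc11a2 and Steap3 fall below it only without knockdown replicate 3.

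Beyond the 10 members, 60 further genes of iron handling in 6 lists were found in the table, and 47 of them were tested. Of these 6 rose and 7 fell, with a median log2 fold change of 0.01. All 7 that fell belong to the list of mitochondrial iron and iron-sulfur cluster genes, of which 18 were tested and 0 rose; its median log2 fold change was -0.13. That is 38.9% called lower, where 7.29% of all tested genes were. The lists were chosen with earlier results of these data known, so these shares describe the list and do not test it. Among the erythroid markers Klf1, Gata1, Epor, Car2 and Ermap also fell, while Alas2, Hbb-bt, Hbb-bs and Tmod1 rose. Nfs1, Lyrm4 and Isca2 were highest in knockdown replicate 3 and lowest in replicate 4 of that group, where the early granulocyte sum was lowest and highest. Others of the list did not follow that order, or followed it in part. Iba57 was highest in knockdown replicate 4 and lowest in replicate 2. Isca1 was highest in replicate 3 but lowest in replicate 2, and Ciao1 was lowest in replicate 4 but highest in replicate 1. What part the levels of the cell type markers have in the iron-sulfur list was not tested. In each of the 7 the groups did not overlap, where 11.1% of all tested genes were lower without overlap. The 7 were picked because they passed the test, so this adds little to their calls. Iba57, which acts late in the assembly of mitochondrial 4Fe-4S clusters, measured 59.9, 49.1, 54.8 and 64.9 CPM in knockdown replicates 1 to 4, against 78.6, 82.7, 85.6 and 86.7 CPM in scrambled replicates 1 to 4 (log2 fold change -0.54, SE 0.09, adjusted p = 0.00904 by edgeR). Nfs1, the cysteine desulfurase that supplies the sulfur, measured 98.0, 108, 115 and 91.8 CPM in knockdown replicates 1 to 4, against 137, 136, 137 and 123 CPM in scrambled replicates 1 to 4 (adjusted p = 0.0200 by edgeR). Its small partner Lyrm4 (ISD11) fell by 0.57 on the log2 scale, and the late-acting scaffold genes Isca1 and Isca2 fell by 0.30 and 0.45. Ciao1, of the cytosolic assembly machinery, fell by 0.29, at 61.5 ± 2.20 CPM in the knockdown and 75.1 ± 0.924 CPM in the scrambled group (SD, n = 4 each). The scaffold gene Iscu (log2 fold change -0.07) and the glutaredoxin gene Glrx5 (-0.03) did not pass. Iba57 and Ciao1 passed whichever library was left out. Nfs1, Lyrm4 and Isca2 each missed the threshold in 4 of the 8 fits that leave out a library, and Isca1 in 6, with an adjusted p of up to 0.0868. The number of all these lists' genes called lower was 7 with all libraries and 11 without knockdown replicate 3. It was 4 without knockdown replicate 2, 3 without either replicate numbered 1 and 2 without scrambled replicate 2 or 3. The number called higher was 6 with all libraries and 3 without either replicate numbered 1 or without scrambled replicate 2 or 3.

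Of the 9 tested genes in the list of regulators of iron genes, 5 rose and 0 fell, with a median log2 fold change of 0.52, where 8.02% of all tested genes rose. As this list too was chosen with earlier results known, these numbers are a description and not a test. Hif1a, the oxygen-regulated factor among whose targets is Tfrc, measured 53.0, 64.0, 66.9 and 82.3 CPM in knockdown replicates 1 to 4, against 34.6, 34.9, 33.1 and 32.6 CPM in scrambled replicates 1 to 4 (log2 fold change 0.98, SE 0.12, adjusted p = 0.00343 by edgeR). Bach1, the haem-sensing repressor of ferritin and haem oxygenase genes, averaged 67.1 ± 4.52 CPM in the knockdown and 46.8 ± 3.11 CPM in the scrambled group (SD, n = 4 each; adjusted p = 0.00527 by edgeR). Cdc14a, a phosphatase gene of which some transcripts in human carry an iron-responsive element, rose by 0.85 on the log2 scale (adjusted p = 0.00307 by edgeR). These 3 kept their calls under all 16 alternatives. Alas2, the first enzyme of haem synthesis in red cell precursors, measured 194, 103, 238 and 153 CPM in knockdown replicates 1 to 4, against 67.3, 50.6, 42.2 and 100 CPM in scrambled replicates 1 to 4 (log2 fold change 1.40, SE 0.33, adjusted p = 0.0299 by edgeR). Its 5′ untranslated region held a match of the same kind as the ferritins', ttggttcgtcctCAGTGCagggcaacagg, with the loop in capitals, on the plus strand of chromosome X across an exon junction. Alas2 also stands among the erythroid markers, and lost its call without scrambled replicate 1, 2 or 3 or knockdown replicate 1 (adjusted p up to 0.0879). Zc3h12a, the RNase that cuts Tfrc mRNA, measured 14.8, 51.0, 35.0 and 11.8 CPM in knockdown replicates 1 to 4, against 11.0, 9.76, 8.18 and 6.16 CPM in scrambled replicates 1 to 4. It rose by 1.68 on the log2 scale at the edge of the threshold (adjusted p = 0.0480 by edgeR) and, with 1 library left out at a time, passed only without knockdown replicate 4.

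In the other lists 1 gene passed. Of 7 tested genes of the transferrin cycle, Hfe, which encodes the haemochromatosis protein that binds transferrin receptor 1, rose (log2 fold change 2.17, SE 0.62, adjusted p = 0.0468 by edgeR). Its level was low, at 2.50, 1.52, 0.317 and 2.96 CPM in knockdown replicates 1 to 4, against 0.305, 0.369, 0.649 and 0.270 CPM in scrambled replicates 1 to 4. Knockdown replicate 3 was at the scrambled level. The macrophage markers summed to 47.1, 21.4, 16.1 and 54.2 CPM in the same 4 knockdown libraries, in the order that Hfe followed, and the early granulocyte sums given above ran in the same order. The part of either in the Hfe difference was not tested. Hfe kept its call with only 1 of the 8 libraries left out, knockdown replicate 3 (adjusted p = 0.00437). None of 4 tested genes of ferritin handling, 2 of export and its hormone system and 7 of haem transport and breakdown passed. Among these Erfe, the hormone by which red cell precursors call for iron, averaged 108 ± 31.0 CPM in the knockdown and 69.1 ± 30.7 CPM in the scrambled group (SD, n = 4 each). Ncoa4, the receptor that delivers ferritin for breakdown, averaged 9.96 ± 1.48 and 8.92 ± 0.776 CPM (knockdown and scrambled; SD, n = 4 each).

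**Figure D5:**
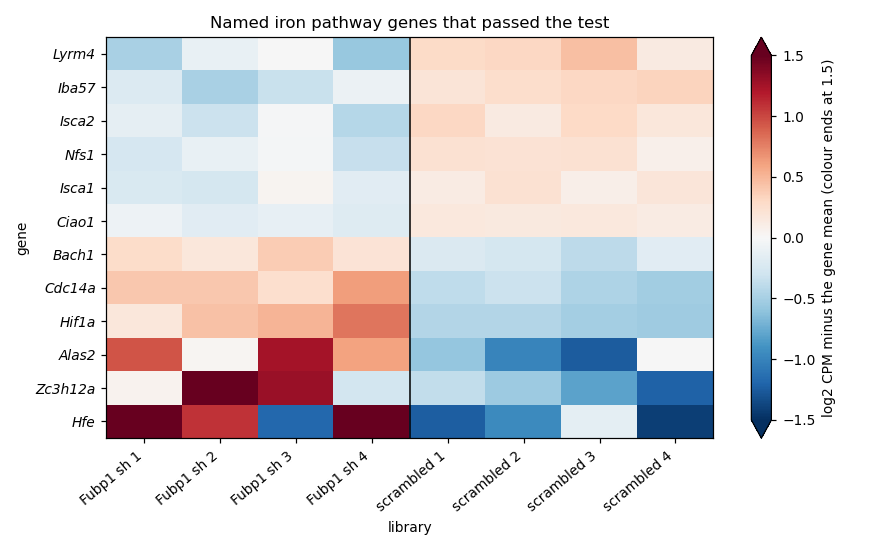
Log2 CPM minus the gene's mean over 8 libraries (colour, ending at 1.5) for the further iron pathway genes named here that passed an adjusted p of 0.05, with the 4 knockdown libraries left of the line and the 4 scrambled ones right of it. The 6 genes of iron-sulfur clusters at the top are lower in all 4 knockdown libraries, and Hfe at the bottom does not rise in knockdown replicate 3.

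Likeness was measured as the mean absolute difference, over the 8 libraries, of log2 CPM centred on each gene's mean, among 7155 others whose mean was 20 CPM or more. The genes most like Slc40a1, the member with the largest change, were Mtr (0.06), Uhrf1bp1 (0.06), Eps15 (0.07), Casp6 (0.07) and Ermap (0.07 log2 units), each lower in the knockdown by 0.60 to 0.67 log2 units. Those most like Tfrc were Mtfr1 (0.04), Brms1l (0.05), Donson (0.05), Tyms (0.05) and Pigq (0.05 log2 units), and none of these was called. Because likeness was taken over the same 8 libraries, a change close to that of the member follows from the choice.

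The authors' deposited table called the same 3 members with the same signs: its log2 fold changes were -0.61 for Slc40a1 (adjusted p = 1.51e-05), -0.56 for Aco1 (0.00510) and 0.39 for Ftl1 (0.00604). The other 7 members had adjusted p of 0.0765 or more in the authors' deposited table.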

How the data were processed

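Total RNA, 500 ng per library, entered a stranded kit with ribosomal depletion, per the labels' protocols. The authors deposited whole-number read counts per gene for 8 libraries, with no normalization. The same file holds log2 fold changes, p-values and a mean signal and test score per gene that the authors made with DESeq2 1.18.1, per the submitters' processing notes, which also name CASAVA 1.8. The aligner, counter, strand setting and build were not given in the sources used here, so reads shared by similar or overlapping genes may have been split or dropped. The labels name 2 depletion kits without saying which library had which. Each column took its sample from the number ending that sample's description, leaving 0 columns unmatched.

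The test here was run in edgeR 4.0.16 (R 4.3.3). Genes kept by filterByExpr (13462) were scaled by TMM factors (0.965 to 1.03) and fitted with a robust quasi-likelihood model with the group as its only term. The test was the two-sided quasi-likelihood F test adjusted over all tested genes by the Benjamini-Hochberg method. The SE is the fold change divided by the square root of F, and 95% intervals use the model's degrees of freedom. CPM uses TMM-scaled library sizes; exon lengths, gene positions and transcripts come from GENCODE M21 (GRCm38), matched by gene ID, for 47224 of 47729 genes. Libraries of a group differed by 11.8 to 99.1 in chi-square per degree of freedom, so none was a copy. The edgeR fit was tested on simulated data. DESeq2 1.42.0 and limma 3.58.1 were alternatives. The members and lists were chosen with earlier results of these data known. Text names all members, every called gene of the pathway lists except 1 not reported here, and the 5 genes most like Tfrc and the most changed member; Iscu, Glrx5, Erfe, Ncoa4 and the cell type markers were named after their values were seen.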

Additional observations from a re-analysis of the deposited data

Results flagged for a closer look

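In groups of 4, a library was singled out where its gap to the nearest other exceeded Dixon's 95% critical value, which chance does in about 1 of 20 groups; 22 groups were examined and 3 were singled out. Tfr2 in knockdown replicate 4 was low, at 217 CPM, where the other 3 knockdown libraries held 308 to 321 CPM. Slc25a37 in knockdown replicate 2 was low, at 306 CPM, where the other 3 held 527 to 537 CPM. Fubp1 in scrambled replicate 4 was high, at 396 CPM, where the other 3 scrambled libraries held 284 to 296 CPM.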

How the results depend on the processing

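The 10 members kept the sign of their log2 fold change under all 16 alternatives: DESeq2, RLE factors, upper quartile factors, total counts only, no low count filter, at least 1 CPM in 4 libraries, limma-voom, the replicate block, and 8 fits without 1 library each. Slc40a1 passed in all 16, Ftl1 in 10 and Aco1 in 8. With limma-voom 1 member was called lower, Aco1 missing (log2 fold change -0.59). With no low count filter, which tests 26258 genes, 1 member was called lower, Aco1 missing (-0.61), and 3 other pathway genes rose, while Fubp1 passed (-0.41, adjusted p = 0.0365). DESeq2 called 3520 genes in all, 1910 higher and 1610 lower, with Fubp1 among them (-0.38, adjusted p = 0.0146).

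The groups share replicate numbers, and the sources used here do not state that these pair the mice. Same-numbered libraries did not deviate together (correlations -0.56 to 0.02), and no knockdown library was closest to its own number. Correlations over all genes with so few libraries cannot exclude pairing, which stays unknown. With the replicate block 400 genes were called, 195 higher and 205 lower; 0 members were called higher (Ftl1 0.39, adjusted p = 0.0950), and 3 other pathway genes rose and 3 fell.

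Leaving out 1 library at a time leaves fewer mice to test. The members called lower then numbered 1 to 4 and higher 0 to 1, the other pathway genes called higher 3 to 8 and lower 2 to 11. All genes called numbered 526 (without scrambled replicate 2) to 3425 (without knockdown replicate 3), with 275 to 1956 higher and 251 to 1469 lower. Log2 fold changes ran from -0.73 to -0.52 for Aco1, 0.29 to 0.46 for Ftl1, -0.27 to -0.17 for Slc11a2 and -0.28 to -0.15 for Steap3. The causes were not tested. Every member had at least 2385 counts in each library, so none of these values rests on few counts. The unstated treatment of reads with several matches still bears on Ftl1.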
